A study of Saccharomyces cerevisiae with 8 samples.

Results

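This account follows 34 genes of the budding yeast Saccharomyces cerevisiae that act in G2/M, mitotic exit and cytokinesis, out of 5449 genes read on the arrays. The genes were listed by name (cyclins, regulators of the anaphase-promoting complex, spindle motors, mitotic exit proteins and cytokinesis proteins). The list was chosen with earlier results of these data known, so its shares beside those of all probe sets describe it and do not test it. Each gene was matched by its symbol to 1 probe set, none of them marked as shared between genes. RNA was compared between 3 strains grown to saturation overnight in 10 mL of rich medium with 2% glucose at 30 °C. The esa1 sup2- strain (double mutant, 3 arrays) carries an esa1 mutation together with sup2-, a bypass suppressor that lets cells live without the essential ESA1. The ESA1 sup2- strain (single mutant, 3 arrays) carries sup2- and keeps ESA1, and the ESA1 SUP2 strain (2 arrays) is the wild type. The labels say neither which gene SUP2 is nor what the esa1 allele is. ESA1 encodes the catalytic subunit of the NuA4 histone acetyltransferase, and its own signal went with the labels: it was 1.19, 3.34 and 0.267 in esa1 sup2-, 819, 894 and 877 in ESA1 sup2-, and 1216 and 1067 in ESA1 SUP2. The esa1 sup2- values were under the bound for background, which was 11.3 to 12.4 there, so ESA1 was at least 73.3-fold lower there than in ESA1 sup2- and at least 96.8-fold lower than in ESA1 SUP2 (limma adjusted p = 6.2e-09 and 1.3e-08).

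As background, entry into mitosis is driven by the kinase Cdk1 bound to B-type cyclins, and many genes needed from G2 to cytokinesis are transcribed together in G2/M by the factors Mcm1, Fkh2 and Ndd1, the group known as the CLB2 cluster. Anaphase begins when Cdc20 activates the anaphase-promoting complex, which destroys securin (Pds1) and frees separase (Esp1). Mitotic exit then needs the phosphatase Cdc14, which the inhibitor Net1 holds in the nucleolus until the FEAR pathway and the mitotic exit network release it, after which the cell divides with an actomyosin ring and a septum. Loss of Esa1 activity in conditional mutants is known to stop cells in G2/M. Cells of saturated cultures mostly stop dividing, but the labels give no measure of how many cells of each culture here were still dividing. A lower signal can come from fewer cells in mitosis or from less RNA per cell, and bulk RNA cannot tell these apart.

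Each gene was read as a probe-set signal, a value computed from the brightness of a set of short probes, and levels are compared only between strains, never between genes. Fold changes are differences of log2(signal + 121), a scale that understates the change of dim genes, and were tested with limma in 1 fit of all 8 arrays, where a probe set was called at an adjusted p under 0.05. Of the 34 genes, 28 passed the filter that left out the dimmest 20% of probe sets. CLB2, CIN8, KIP1, ASE1, IPL1 and SLI15 did not, and their values come from the same fit without the filter. The nearest gene outside was KIP1, with a mean log2 value of 8.49, and the nearest inside was BIR1 at 8.54, against a filter value of 8.53. No signal of the 34 genes was below the background bound on any array. The labels leave unsaid whether replicates are separate cultures. The p-values therefore cover only the spread among these samples, and that spread may be technical. The SD of the log2 differences between replicates was 0.262 to 0.323 in esa1 sup2-, 0.09 to 0.2105 in ESA1 sup2- and 0.1106 in ESA1 SUP2. The strains share 1 estimate of the spread. Leaving out an array of a strain outside a comparison can thus change a call without changing the fold change. The fluidics station was 2 for all esa1 sup2- arrays, 3 for all ESA1 sup2- arrays and 1 for all ESA1 SUP2 arrays, so station and strain cannot be told apart. The 3′ to 5′ ratio of the ACT1 control probe sets, a sign of RNA quality, was 1.25 to 1.31 in esa1 sup2-, 1.42 to 1.56 in ESA1 sup2- and 1.39 to 1.58 in ESA1 SUP2. Its part in the results was not tested. CLB1 and CLB2, CLB3 and CLB4, and DBF2 and DBF20 are pairs of related genes, and how far their probes tell the copies apart was not tested.

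Across the 8 arrays most of these genes stood highest in the ESA1 sup2- strain. The median over the 34 genes of each gene's deviation from its own mean log2 value was -0.025, -0.16 and -0.090 on the esa1 sup2- arrays, 0.25, 0.26 and 0.24 on the ESA1 sup2- arrays, and -0.19 and -0.25 on the ESA1 SUP2 arrays. The ESA1 sup2- arrays thus lay above all others, and between 28 and 30 of the 34 genes were above their own mean on each of them. By mean signal 25 of the 34 genes were highest in ESA1 sup2-, 5 in esa1 sup2- and 4 in ESA1 SUP2. Of the genes that passed the filter, 21 of 28 were highest in ESA1 sup2-, against 20.6% of the 4398 probe sets tested. The 5 genes highest in esa1 sup2- were CLB1, CLB2, CLB3, CDC14 and NET1, and the 4 highest in ESA1 SUP2 were MOB1, CIN8, CDC15 and CDH1.

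**Figure D1:**
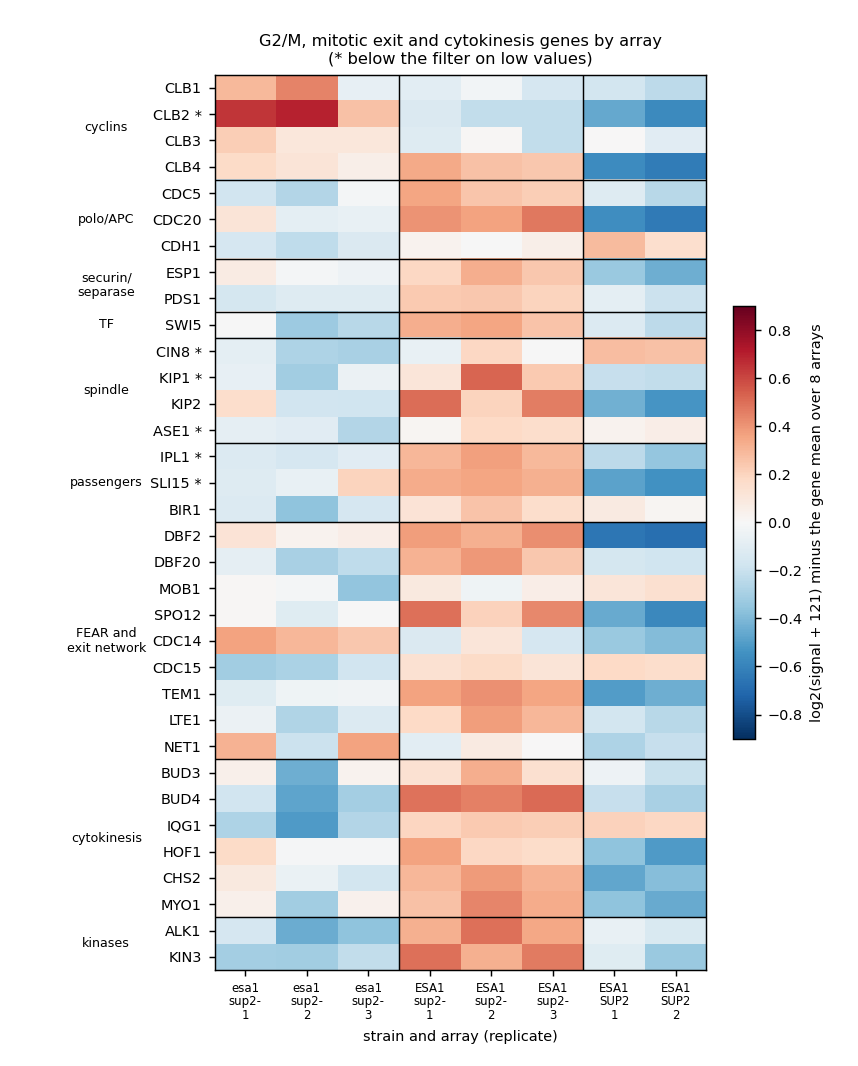
Each gene's log2(signal + 121) minus its mean over the 8 arrays (colour), with genes in rows by role and arrays in columns by strain. The ESA1 sup2- columns are above the gene mean for 28 to 30 of the 34 genes, while CLB1, CLB2, CLB3, CDC14 and NET1 have their highest mean signals in the esa1 sup2- columns.

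The strains ESA1 sup2- and ESA1 SUP2 both carry ESA1 and differ, by their labels, in SUP2. ESA1's own signal was called lower in ESA1 sup2- (-0.36, limma adjusted p = 0.0049), though not without ESA1 SUP2 replicate 1 (adjusted p = 0.059) or with poly-A or hybridisation control scaling. Here 19 of the 28 tested genes rose and 0 fell in limma, where 28.5% of all tested probe sets were called higher and 22.1% lower (50.6% in all). At an unadjusted p under 0.05 there were 19 higher and 1 lower, the lower one being CDH1. The median log2 fold change was 0.49 (range -0.19 to 1.03), against 0.006 over all tested probe sets. The largest increases were those of DBF2, a kinase of the mitotic exit network (1.03), CDC20, the activator of the anaphase-promoting complex (1.01), SPO12, of the FEAR pathway (0.90), and CLB4, a B-type cyclin (0.88). Without the filter, 22 of all 34 genes were higher and 0 lower (23 and 2 at an unadjusted p under 0.05), with 26.1% and 23.4% of all 5498 probe sets called in those directions. All ESA1 sup2- arrays lay above both ESA1 SUP2 arrays for 23 of the 28 genes and below them for 2, as they did for 40.4% and 37.4% of tested probe sets.

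The strains esa1 sup2- and ESA1 sup2- both have the suppressor mutation and differ, by their labels, in ESA1. Of the 28 tested genes 21 fell and 2 rose, against 35.8% of all tested probe sets called lower and 31.8% called higher (67.6% in all). All esa1 sup2- arrays lay below all ESA1 sup2- arrays for 22 of the 28 genes, as for 37.3% of tested probe sets, and above them for 2, as for 33.5%. The median log2 fold change was -0.40 (range -0.80 to 0.36), against -0.025 over all. BUD4, a landmark of the bud neck, fell by 0.80 on the log2 scale, and the kinase genes ALK1 and KIN3 fell by 0.71 each. CDC14, the phosphatase of mitotic exit, and CLB3, a B-type cyclin, rose by 0.36 and 0.25. Without the filter 26 of all 34 genes were lower and 3 higher, where 36.9% and 27.7% of all probe sets were, and the third increase was CLB2, the main mitotic cyclin, at 0.72. When the poly-A controls set the scale of each array, the median over all probe sets was 0.19 in place of -0.025, and only 3 of the 28 genes were called lower (BUD4, ALK1 and KIN3), so that the falls of the other 18 did not hold with it. Those controls averaged 6.76 on the log2 scale on esa1 sup2- replicate 1, against 7.23 to 7.44 on the other 7 arrays, and the same scaling without that array called 19 lower, all but CDH1 and CLB4. With quantile normalization 14 were called lower, without those of BIR1, CDH1, CHS2, CLB4, ESP1, KIP2 and MYO1.

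Against the wild type, the esa1 sup2- strain had 13 of the 28 tested genes higher and 4 lower, where 37.9% and 36.6% of all tested probe sets were called in those directions (74.5% in all). Its arrays all lay above both wild-type arrays for 14 of the 28 genes and below them for 6, against 41.8% and 40% of tested probe sets. The median was 0.12 (range -0.55 to 0.73), against 0.015 over all. The increases were led by DBF2 (0.73), CLB4 (0.71), CDC14 (0.66) and CDC20 (0.58). The 4 decreases were those of IQG1 (-0.55), CDC15 (-0.43), CDH1 (-0.39) and BIR1 (-0.26), none of which was called with poly-A control scaling. Without the filter the counts were 16 higher and 5 lower of 34, against 33.8% and 38.9% of all probe sets, and CLB2 had the largest difference of all 34 genes at 1.05. The 3 comparisons share arrays, so the values of a gene in them are given side by side and are not independent.

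**Figure D2:**
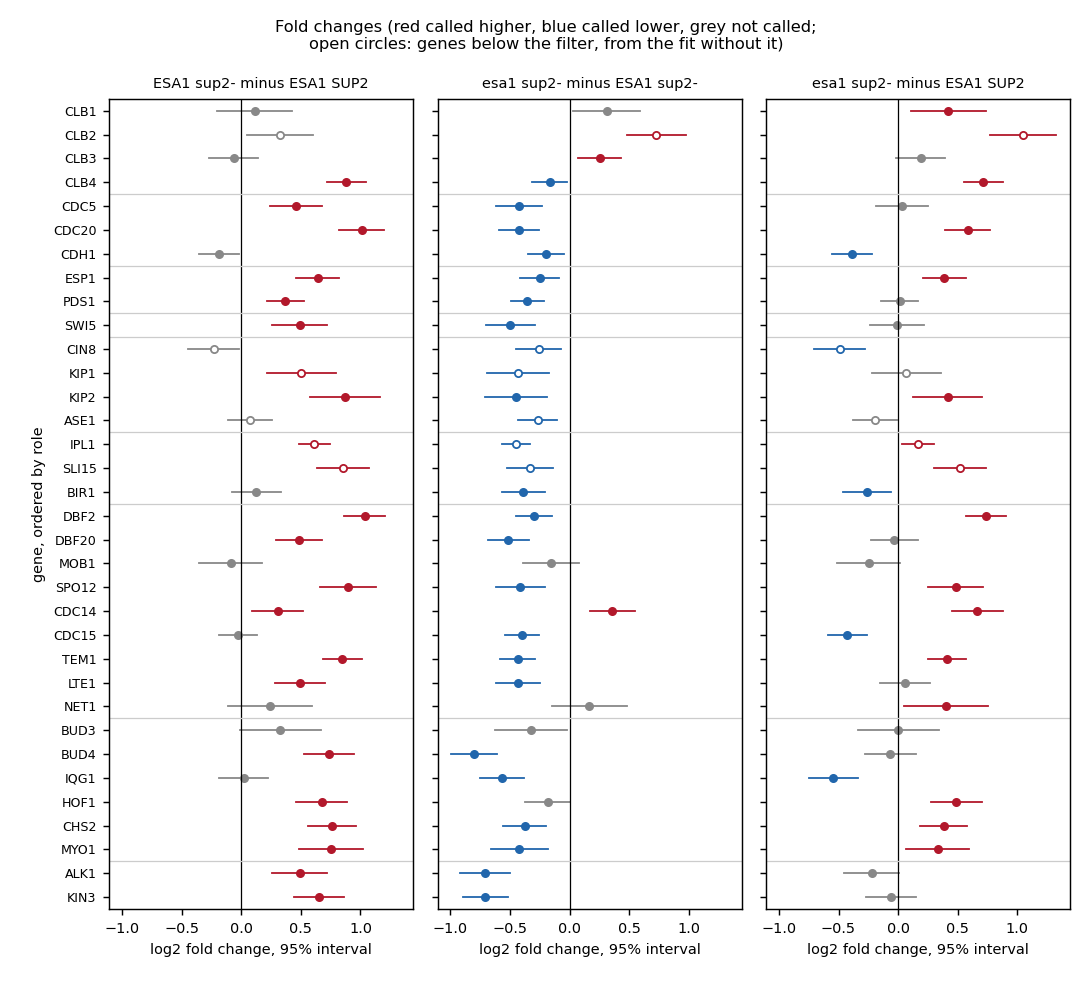
Log2 fold change (x axis) and 95% interval of each of the 34 genes (y axis, ordered by role) in the 3 comparisons, with colour for the call and open circles for the 6 genes below the filter. Most points lie right of 0 for ESA1 sup2- minus ESA1 SUP2 and left of 0 for esa1 sup2- minus ESA1 sup2-, where CLB1, CLB2, CLB3, CDC14 and NET1 lie right of 0.

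The 4 mitotic cyclins, which bind and activate Cdk1, had different orders over the strains. CLB2 (YPR119W), the cyclin with the main part in mitosis, had signals of 382, 402 and 267 in esa1 sup2-, 174, 156 and 156 in ESA1 sup2-, and 114 and 96 in ESA1 SUP2. The strains did not overlap, and even the lowest esa1 sup2- array was above the highest ESA1 sup2- array. CLB2 rose by 0.72 against ESA1 sup2- (SE 0.11, limma adjusted p = 0.00046, fit without the filter) and by 1.05 against ESA1 SUP2 (SE 0.12, limma adjusted p = 6.3e-05). On the linear scale its mean signal was 2.16-fold that of ESA1 sup2- and 3.34-fold that of ESA1 SUP2. Both calls held in all 17 alternatives run for each, with each array left out among them. Between ESA1 sup2- and ESA1 SUP2 the CLB2 difference of 0.32 was not called (limma adjusted p = 0.053), but was called with a pseudocount of 1 or 32 (0.62 and 0.50), with hybridisation control scaling, with the replicate number as a block and without esa1 sup2- replicate 2 or 3 (adjusted p of 0.0048 to 0.037).

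CLB1 (YGR108W), the cyclin most related to CLB2, had signals of 740.4, 837 and 545 in esa1 sup2-, 538, 570.4 and 512 in ESA1 sup2-, and 505 and 476 in ESA1 SUP2. Replicates 1 and 2 of esa1 sup2- were the highest, while replicate 3 lay among the ESA1 sup2- arrays. CLB1 rose by 0.42 against ESA1 SUP2 (SE 0.14, limma adjusted p = 0.021), a call that was lost without esa1 sup2- replicate 1 or either ESA1 SUP2 array (adjusted p of 0.058 to 0.11). Its difference of 0.31 against ESA1 sup2- was just short of the threshold (limma adjusted p = 0.051), and without esa1 sup2- replicate 3 it was called (0.46, adjusted p = 0.0012). The difference was also called with quantile normalization, median centring and poly-A control scaling (0.425, 0.44 and 0.53, limma adjusted p = 0.014, 0.014 and 0.0092). It was just called with shared probe sets left out (limma adjusted p = 0.05). With the replicate number as a block that difference was called (0.31, adjusted p = 0.029), and with the fluidics module as a block the rise over ESA1 SUP2 was not (adjusted p = 0.054). CLB4 (YLR210W), which together with CLB3 (YDL155W) acts in spindle assembly, went another way, at 364, 346 and 326 in esa1 sup2-, 425, 395 and 388 in ESA1 sup2-, and 169.7 and 157 in ESA1 SUP2. Both mutants lay far above the wild type, and CLB4 rose by 0.88 in ESA1 sup2- (SE 0.072, limma adjusted p = 3.9e-05) and by 0.71 in esa1 sup2- (SE 0.072, limma adjusted p = 2.2e-05). The fall of 0.17 between the mutants was small (limma adjusted p = 0.043), was lost without any 1 of 7 arrays (adjusted p of 0.059 to 0.14), and changed sign to 0.021 when quantile normalized and 0.030 with poly-A scaling. CLB3 had 453, 408 and 407 in esa1 sup2-, 333, 376 and 301 in ESA1 sup2-, and 374 and 338 in ESA1 SUP2, with the ESA1 sup2- and ESA1 SUP2 arrays overlapping. It rose by 0.25 against ESA1 sup2- (SE 0.080, limma adjusted p = 0.021), which was not called without esa1 sup2- replicate 1 or ESA1 sup2- replicate 1 or 3 (adjusted p of 0.06 to 0.092). Nor was this rise called with hybridisation control scaling (0.148, limma adjusted p = 0.22).

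**Figure D3:**
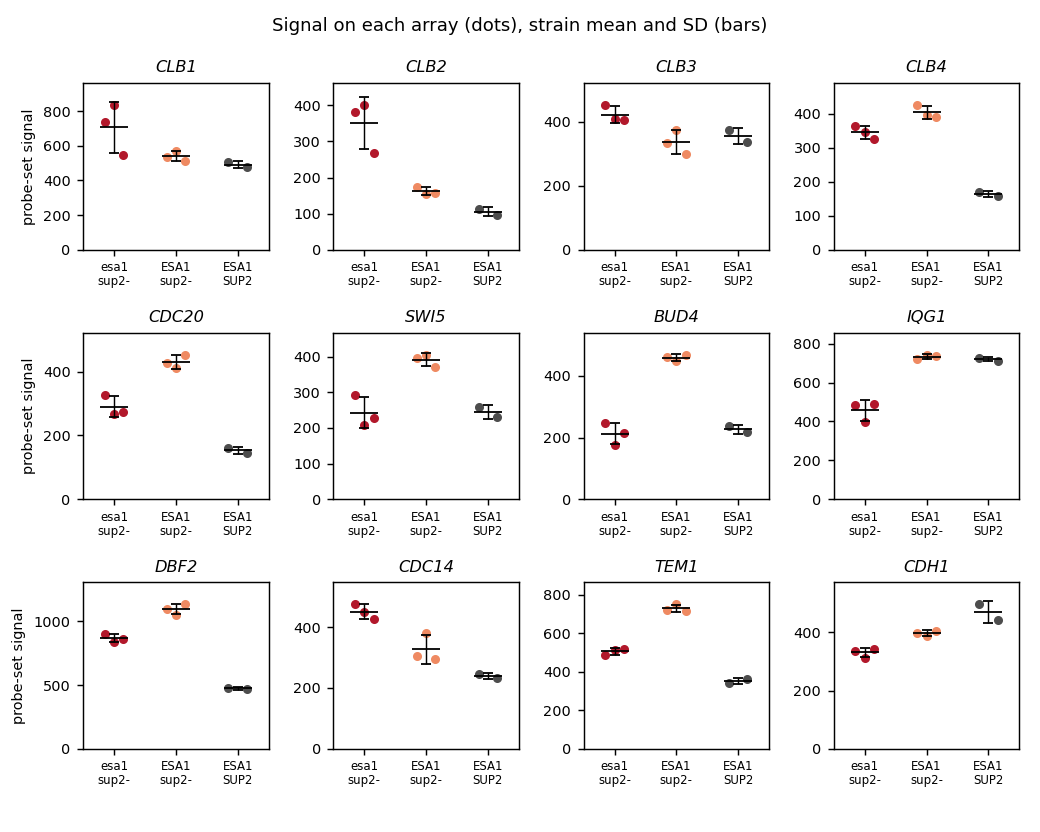
Probe-set signal (y axis, linear from 0) on each array of the 3 strains (x axis) for 12 of the genes, with the strain mean and SD. CLB2 stands highest in esa1 sup2- and lowest in ESA1 SUP2, CDC20, DBF2 and TEM1 stand highest in ESA1 sup2- with esa1 sup2- between it and ESA1 SUP2, and IQG1 is low in esa1 sup2- alone.

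Both activators of the anaphase-promoting complex differed between strains, CDC20 (YGL116W) being highest in ESA1 sup2- and CDH1 (YGL003C) in the wild type. CDC20, which starts anaphase, had signals of 328, 269 and 275 in esa1 sup2-, 428, 411 and 454 in ESA1 sup2-, and 160.2 and 146 in ESA1 SUP2. The 3 strains formed 3 separate ranges with ESA1 sup2- at the top. CDC20 rose by 1.01 in ESA1 sup2- against the wild type (SE 0.083, limma adjusted p = 4.1e-05). It fell by 0.42 in esa1 sup2- against ESA1 sup2- (SE 0.075, limma adjusted p = 0.00094), staying 0.58 above the wild type (limma adjusted p = 0.0002). CDH1, which keeps the complex active in late mitosis and G1, had 337, 314 and 343 in esa1 sup2-, 399, 387 and 407 in ESA1 sup2-, and 497 and 443 in ESA1 SUP2. The strains did not overlap and the wild type was at the top, and CDH1 fell by 0.39 in esa1 sup2- against ESA1 SUP2 (SE 0.074, limma adjusted p = 0.0012). Its step of -0.20 between the mutants was called (limma adjusted p = 0.026) but not without esa1 sup2- replicate 2 or ESA1 sup2- replicate 1 or 3 (adjusted p of 0.05 to 0.088). It was also lost with median centring (-0.067, adjusted p = 0.34), quantile normalization (-0.007, adjusted p = 0.92) and the fluidics module as a block (adjusted p = 0.053). The difference of -0.19 between ESA1 sup2- and the wild type was not called (limma adjusted p = 0.06), except, among the arrays left out, without esa1 sup2- replicate 2 (adjusted p = 0.04). It was also called with quantile normalization and median centring (-0.263 and -0.241, limma adjusted p = 0.0067 and 0.015). A fit of only the 2 strains compared called it too (limma adjusted p = 0.037). CDC5 (YMR001C), the polo kinase of mitotic entry and exit, had 415, 382 and 476 in esa1 sup2-, 651, 595 and 582 in ESA1 sup2-, and 436 and 386 in ESA1 SUP2. Only the ESA1 sup2- arrays stood apart, and CDC5 rose by 0.46 there against the wild type (SE 0.095, limma adjusted p = 0.004). It fell by 0.42 in esa1 sup2- (SE 0.085, limma adjusted p = 0.002).

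Securin and separase moved together in ESA1 sup2-. PDS1 (YDR113C), the securin, had signals of 305, 316 and 316 in esa1 sup2-, 438, 439 and 422 in ESA1 sup2-, and 324 and 293 in ESA1 SUP2. It rose by 0.37 in ESA1 sup2- against the wild type (SE 0.068, limma adjusted p = 0.0022), though not with poly-A control scaling (adjusted p = 0.08), and fell by 0.35 in esa1 sup2- against ESA1 sup2- (SE 0.061, limma adjusted p = 0.00083), and its esa1 sup2- and wild-type arrays overlapped. ESP1 (YGR098C), the separase that cuts cohesin, had 478, 442 and 431 in esa1 sup2-, 529, 596 and 555 in ESA1 sup2-, and 332 and 300.2 in ESA1 SUP2. The 3 strains did not overlap, and ESP1 rose by 0.64 in ESA1 sup2- against the wild type (SE 0.079, limma adjusted p = 0.00028) and fell in esa1 sup2- by 0.25 (SE 0.071, limma adjusted p = 0.012), a fall that was also lost with quantile normalization or median centring. SWI5 (YDR146C), a transcription factor made in G2/M that switches on genes at the end of mitosis, had 292, 209 and 227 in esa1 sup2-, 396, 406 and 371 in ESA1 sup2-, and 258 and 229.5 in ESA1 SUP2. The wild-type and esa1 sup2- arrays overlapped below the ESA1 sup2- arrays. SWI5 rose by 0.49 in ESA1 sup2- over the wild type (SE 0.10, limma adjusted p = 0.0038). It fell by 0.50 in esa1 sup2- against ESA1 sup2- (SE 0.090, limma adjusted p = 0.0011), which left a difference of -0.010 between esa1 sup2- and the wild type (95% interval -0.24 to 0.22).

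The spindle genes were dim, and only KIP2 (YPL155C) passed the filter. KIP2, a kinesin of cytoplasmic microtubules, had signals of 369, 268 and 266 in esa1 sup2-, 501, 384 and 482 in ESA1 sup2-, and 204 and 183 in ESA1 SUP2, with all mutant arrays above both wild-type arrays. It rose by 0.87 in ESA1 sup2- (SE 0.13, limma adjusted p = 0.00066) and by 0.42 in esa1 sup2- (SE 0.13, limma adjusted p = 0.015) against the wild type, the second not without ESA1 SUP2 replicate 2 (adjusted p = 0.096). Between the mutants it fell by 0.45 (SE 0.11, limma adjusted p = 0.0069), a call lost with quantile normalization. The kinesin-5 motors CIN8 (YEL061C) and KIP1 (YBL063W), which push spindle poles apart and overlap in function, differed in their order. CIN8 had 169.8, 134 and 133 in esa1 sup2-, 175, 231 and 189 in ESA1 sup2-, and 254 and 251 in ESA1 SUP2, highest in the wild type, and fell by 0.49 in esa1 sup2- against ESA1 SUP2 (SE 0.093, limma adjusted p = 0.0013). Its fall of 0.26 between the mutants (limma adjusted p = 0.023) was not called without esa1 sup2- replicate 2 or 3 or ESA1 sup2- replicate 2 (adjusted p of 0.064 to 0.065). Between ESA1 sup2- and the wild type CIN8 had a difference of -0.23 that was called only, among the arrays left out, without ESA1 sup2- replicate 2 (-0.30, adjusted p = 0.019). That difference was also called with quantile normalization and median centring (-0.337 and -0.284, limma adjusted p = 0.016 and 0.031). KIP1 had 220.2, 167 and 225 in esa1 sup2-, 266, 395 and 301 in ESA1 sup2-, and 189 and 187 in ESA1 SUP2, highest in ESA1 sup2-, where it rose by 0.50 against the wild type (SE 0.13, limma adjusted p = 0.011), though not without either wild-type array (adjusted p of 0.062 to 0.065). KIP1 fell by 0.43 in esa1 sup2- against ESA1 sup2- (limma adjusted p = 0.0093). ASE1 (YOR058C), which bundles microtubules in the spindle midzone, had 206, 201 and 168 in esa1 sup2-, 230.5, 271 and 266 in ESA1 sup2-, and 233 and 240.3 in ESA1 SUP2. ASE1 fell by 0.27 in esa1 sup2- against ESA1 sup2- (limma adjusted p = 0.011), and its difference of 0.073 between ESA1 sup2- and the wild type was not called. All these values except those of KIP2 are from the fit without the filter, and the falls of CIN8, KIP1 and ASE1 between the mutants were also lost with quantile normalization or poly-A control scaling.

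The chromosomal passenger complex corrects wrong attachments of chromosomes to the spindle, and its 3 genes listed here all fell in esa1 sup2- against ESA1 sup2-. Of all probe sets 36.9% were called lower there without the filter, and 35.8% with it. IPL1 (YPL209C), the Aurora kinase of the complex, had signals of 106, 101 and 109 in esa1 sup2-, 184, 198 and 182 in ESA1 sup2-, and 88.8 and 73.3 in ESA1 SUP2. The ESA1 sup2- arrays were the highest without overlap, and IPL1 rose by 0.61 against the wild type (SE 0.057, limma adjusted p = 6.7e-05, fit without the filter). It fell by 0.45 in esa1 sup2- (SE 0.051, limma adjusted p = 0.0001). The remaining rise of 0.17 in esa1 sup2- over the wild type (limma adjusted p = 0.027) was not called without esa1 sup2- replicate 1 or 3 or ESA1 SUP2 replicate 2 (adjusted p of 0.052 to 0.22), nor with the replicate number as a block (adjusted p = 0.06). With hybridisation control scaling that rise of IPL1 was lost too (0.144, limma adjusted p = 0.11). SLI15 (YBR156C), the scaffold of the complex, had 209, 219.8 and 289 in esa1 sup2-, 329.9, 337 and 326 in ESA1 sup2-, and 135 and 124 in ESA1 SUP2. It rose by 0.85 in ESA1 sup2- (SE 0.096, limma adjusted p = 0.00018) and by 0.52 in esa1 sup2- (SE 0.096, limma adjusted p = 0.0011) against the wild type, and fell by 0.33 between the mutants (limma adjusted p = 0.0083), though not with quantile normalization or poly-A control scaling. BIR1 (YJR089W), the survivin-like member, had 220.3, 168 and 213 in esa1 sup2-, 284, 322 and 293 in ESA1 sup2-, and 272 and 255 in ESA1 SUP2. It fell by 0.39 between the mutants (SE 0.079, limma adjusted p = 0.0022), again not with either scaling. In esa1 sup2- BIR1 also fell by 0.26 against the wild type (limma adjusted p = 0.023), a call that was lost with quantile normalization or median centring and without either wild-type array (adjusted p of 0.062 to 0.13).

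Genes of the mitotic exit network gave both the largest rise in ESA1 sup2- and a member, MOB1, with no called comparison. DBF2 (YGR092W), the kinase at the end of the network, had signals of 904, 841 and 862 in esa1 sup2-, 1101, 1054 and 1136 in ESA1 sup2-, and 480.4 and 467 in ESA1 SUP2. The strains did not overlap, and DBF2 rose by 1.03 in ESA1 sup2- (SE 0.075, limma adjusted p = 2e-05) and by 0.73 in esa1 sup2- (SE 0.075, limma adjusted p = 2.2e-05) over the wild type, with a fall of 0.30 between the mutants (limma adjusted p = 0.0037). DBF20 (YPR111W), its related copy, had 465, 386 and 409 in esa1 sup2-, 648, 690.5 and 614 in ESA1 sup2-, and 435 and 426 in ESA1 SUP2, where only ESA1 sup2- stood apart. It rose by 0.48 in that strain over the wild type (SE 0.086, limma adjusted p = 0.0018). It fell by 0.51 in esa1 sup2- against it (SE 0.077, limma adjusted p = 0.00038), and its difference between esa1 sup2- and the wild type was -0.031 (95% interval -0.23 to 0.17). MOB1 (YIL106W), the partner protein of these kinases, had 592, 578 and 431 in esa1 sup2-, 632, 568 and 617 in ESA1 sup2-, and 643 and 659 in ESA1 SUP2. None of its comparisons was called (limma adjusted p of 0.079 to 0.55). Without esa1 sup2- replicate 1, MOB1 was called lower in esa1 sup2- than in the wild type (-0.31, limma adjusted p = 0.043). The same call came with the fluidics module as a block (-0.28, limma adjusted p = 0.047). With hybridisation control scaling MOB1 was called lower in esa1 sup2- than in ESA1 sup2- (-0.27, limma adjusted p = 0.048). TEM1 (YML064C), the GTPase that turns the network on, had 485, 515 and 520.5 in esa1 sup2-, 719, 751 and 716 in ESA1 sup2-, and 341 and 362 in ESA1 SUP2. It rose by 0.85 in ESA1 sup2- (SE 0.071, limma adjusted p = 4.2e-05) and by 0.41 in esa1 sup2- (SE 0.071, limma adjusted p = 0.00065), falling by 0.44 between them (limma adjusted p = 0.00032). LTE1 (YAL024C), which promotes Tem1 activity, had 271, 216 and 252 in esa1 sup2-, 338, 407 and 379.6 in ESA1 sup2-, and 241 and 221 in ESA1 SUP2. LTE1 rose by 0.49 in ESA1 sup2- and fell by 0.43 in esa1 sup2- against it (limma adjusted p = 0.0023 and 0.0015). CDC15 (YAR019C), the kinase between Tem1 and Dbf2, had 225, 232 and 261 in esa1 sup2-, 352, 365 and 345 in ESA1 sup2-, and 366 and 359 in ESA1 SUP2. Its difference between ESA1 sup2- and the wild type had a 95% interval of -0.19 to 0.14 and CDC15 fell in esa1 sup2- by 0.40 against ESA1 sup2- (SE 0.064, limma adjusted p = 0.00054).

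The phosphatase CDC14 (YFR028C) and its nucleolar inhibitor NET1 (YJL076W) were higher on most esa1 sup2- arrays than elsewhere. CDC14 had signals of 476, 449.7 and 427 in esa1 sup2-, 304, 380.4 and 296 in ESA1 sup2-, and 247 and 233 in ESA1 SUP2, with every esa1 sup2- array above every other. It rose by 0.36 against ESA1 sup2- (SE 0.084, limma adjusted p = 0.0048) and by 0.66 against the wild type (SE 0.094, limma adjusted p = 0.00018). The rise of 0.31 in ESA1 sup2- over the wild type (limma adjusted p = 0.024) was not called without either wild-type array (adjusted p of 0.083 to 0.14), with quantile normalization or with poly-A control scaling. NET1 had 623, 402 and 649.7 in esa1 sup2-, 440.2, 512 and 479.9 in ESA1 sup2-, and 373 and 397 in ESA1 SUP2. Replicates 1 and 3 of esa1 sup2- were the highest and replicate 2 lay near the wild type. NET1 was called higher in esa1 sup2- than in the wild type (0.41, SE 0.15, limma adjusted p = 0.039), a call that was lost without esa1 sup2- replicate 1 or 3, any ESA1 sup2- array or either wild-type array (adjusted p of 0.05 to 0.16) and with the replicate number as a block (adjusted p = 0.095). With hybridisation control scaling that call was lost too (0.372, limma adjusted p = 0.085). Without esa1 sup2- replicate 2 NET1 was also called higher in esa1 sup2- than in ESA1 sup2- (0.34, adjusted p = 0.004) and higher in ESA1 sup2- than in the wild type (0.24, adjusted p = 0.023). The last difference, in which that array has no part, was also called in a fit of only the 2 strains compared (0.24, limma adjusted p = 0.021). SPO12 (YHR152W), which helps free Cdc14 early in anaphase, had 1404, 1286 and 1387 in esa1 sup2-, 2017, 1631 and 1919.7 in ESA1 sup2-, and 986 and 891 in ESA1 SUP2. It rose by 0.90 in ESA1 sup2- over the wild type (SE 0.10, limma adjusted p = 0.00018). It fell by 0.41 in esa1 sup2- against ESA1 sup2- (SE 0.092, limma adjusted p = 0.0036).

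Bud-neck and cytokinesis genes were mostly highest in ESA1 sup2-. BUD4 (YJR092W), which with BUD3 (YCL014W) marks the site of the next bud, had signals of 247, 176 and 215 in esa1 sup2-, 460.4, 447 and 469 in ESA1 sup2-, and 237 and 217 in ESA1 SUP2. The ESA1 sup2- arrays stood apart and the other strains overlapped. BUD4 rose by 0.74 in ESA1 sup2- (SE 0.093, limma adjusted p = 0.00031) and had the largest fall of the 34 genes in esa1 sup2- against it, -0.80 (SE 0.083, limma adjusted p = 4.6e-05). BUD3 had 456, 291 and 449 in esa1 sup2-, 494, 581 and 497 in ESA1 sup2-, and 421 and 364 in ESA1 SUP2. Replicate 2 of esa1 sup2- lay far below replicates 1 and 3, and no BUD3 comparison was called (limma adjusted p of 0.054 to 0.99). Leaving out esa1 sup2- replicate 1 or 3 gave a called fall between the mutants (-0.41 and -0.40, adjusted p = 0.037 and 0.032), and leaving out replicate 2 a called rise of 0.33 in ESA1 sup2- over the wild type (adjusted p = 0.012). That array has no part in this rise, which is the same size with it. A fit of only the 2 strains compared called the rise too (limma adjusted p = 0.012). With the fluidics module as a block both the fall and the rise were called (-0.33 between the mutants and 0.42 over the wild type, adjusted p = 0.026 each). IQG1 (YPL242C), the IQGAP protein that recruits actin to the ring, had 484, 395 and 492 in esa1 sup2-, 720.1, 745 and 736 in ESA1 sup2-, and 728 and 713 in ESA1 SUP2. Its ESA1 sup2- and wild-type arrays overlapped, and it fell in esa1 sup2- by 0.57 against ESA1 sup2- (SE 0.081, limma adjusted p = 0.00028) and by 0.55 against the wild type (SE 0.090, limma adjusted p = 0.0005). MYO1 (YHR023W), the myosin of the contractile ring, had 314, 218 and 312 in esa1 sup2-, 385, 452 and 411 in ESA1 sup2-, and 207 and 187 in ESA1 SUP2. MYO1 rose by 0.75 in ESA1 sup2- and fell by 0.42 in esa1 sup2- against it (limma adjusted p = 0.00089 and 0.0064). Its rise of 0.33 in esa1 sup2- over the wild type (limma adjusted p = 0.029) was lost without esa1 sup2- replicate 1 or 3 or either wild-type array (adjusted p of 0.068 to 0.15) and with the replicate number as a block (adjusted p = 0.069). With hybridisation control scaling that rise of MYO1 was lost too (0.302, limma adjusted p = 0.08). HOF1 (YMR032W), which links the ring to the septum, had 305, 254 and 254 in esa1 sup2-, 363, 309 and 302 in ESA1 sup2-, and 172 and 144 in ESA1 SUP2. It rose by 0.68 in ESA1 sup2- and 0.49 in esa1 sup2- over the wild type (limma adjusted p = 0.00052 and 0.0012). Its difference of -0.19 between the mutants was not called, but was without esa1 sup2- replicate 1 (-0.25, adjusted p = 0.034) and with the replicate number as a block (adjusted p = 0.037). CHS2 (YBR038W), the chitin synthase of the primary septum, had 365, 318 and 287 in esa1 sup2-, 442, 476 and 449 in ESA1 sup2-, and 209 and 229.5 in ESA1 SUP2. The strains did not overlap, and CHS2 rose by 0.76 in ESA1 sup2- (SE 0.087, limma adjusted p = 0.00018). It fell by 0.38 in esa1 sup2- against it (SE 0.078, limma adjusted p = 0.0023).

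The remaining kinases, KIN3 (YAR018C), related to the mitotic NIMA kinases, and ALK1 (YGL021W), a haspin-like kinase, had steep falls between the mutants. KIN3 had signals of 216, 214 and 237 in esa1 sup2-, 468, 398 and 456 in ESA1 sup2-, and 266 and 210.0 in ESA1 SUP2. It rose by 0.65 in ESA1 sup2- (SE 0.092, limma adjusted p = 0.00057). It fell by 0.71 in esa1 sup2- (SE 0.082, limma adjusted p = 8.8e-05), where its arrays overlapped the wild type. ALK1 had 414, 315 and 342 in esa1 sup2-, 623, 720.0 and 635 in ESA1 sup2-, and 448 and 421 in ESA1 SUP2. It rose by 0.49 in ESA1 sup2- over the wild type (SE 0.10, limma adjusted p = 0.0042). It fell by 0.71 in esa1 sup2- against ESA1 sup2- (SE 0.092, limma adjusted p = 0.00016), and its difference of -0.22 between esa1 sup2- and the wild type was not called (limma adjusted p = 0.077), except without esa1 sup2- replicate 1 (-0.30, adjusted p = 0.016).

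The 34 genes can also be divided by how they are transcribed, 15 being usually placed in the CLB2 cluster. Of the 14 tested cluster genes 10 rose in ESA1 sup2- against the wild type (median log2 fold change 0.57), and of the 14 tested genes outside it 9 did (median 0.43), where 28.5% of all tested probe sets were called higher. In esa1 sup2- against ESA1 sup2-, 10 cluster genes fell (median -0.42), and outside the cluster 11 fell and 2 rose (median -0.37), where 35.8% of all were called lower and 31.8% higher. Against the wild type 6 cluster genes were higher and 1 lower in esa1 sup2- (median 0.018), and outside it 7 and 3 (median 0.26), beside 37.9% of all called higher and 36.6% lower, so the share of cluster genes called higher there was near that of all probe sets. The difference between cluster genes and others was not tested. CLB2 itself, below the filter, is not in these counts and rose in esa1 sup2- against ESA1 sup2-, where 10 of its cluster fell. Of the 6 tested regulators of G2/M transcription, 1 was called higher and 2 lower in esa1 sup2- against ESA1 sup2- (50.0% called). Of all tested probe sets 67.6% were called there (31.8% higher and 35.8% lower). In ESA1 sup2- against the wild type 3 regulators were higher and 0 lower, beside 28.5% and 22.1% of all. Among them MCM1, a DNA-binding factor of the cluster, had signals of 1528, 1616 and 1197 in esa1 sup2-, 716, 782 and 747 in ESA1 sup2-, and 946 and 884 in ESA1 SUP2. It rose by 0.84 in esa1 sup2- against ESA1 sup2- (SE 0.11, limma adjusted p = 0.00014). NDD1, the coactivator of the cluster, and FKH1, a forkhead factor, both named after their values were seen, had log2 fold changes of -0.64 and -0.54 in that comparison (limma adjusted p = 0.0011 and 0.00034). FKH1 and FKH2, likewise named afterwards, were higher in ESA1 sup2- than in the wild type by 0.77 and 0.37 (limma adjusted p = 0.00018 and 0.0067), and NDD1 had -0.087 there, which was not called.

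Other genes of the mitotic machinery, 82 in all, had 61 genes past the filter. Of these, 35 rose and 6 fell in ESA1 sup2- against the wild type (median 0.37), where 28.5% and 22.1% of all tested probe sets were called. In esa1 sup2- against ESA1 sup2- 30 fell and 5 rose (median -0.25), beside 35.8% and 31.8% of all, and against the wild type 27 rose and 11 fell (median 0.17), beside 37.9% and 36.6%. Of the 13 subunits of the anaphase-promoting complex 7 were tested. Of these 1 rose and 3 fell in ESA1 sup2- against the wild type, while in esa1 sup2- 4 fell against ESA1 sup2- and 4 against the wild type. The shares of all tested probe sets called lower were 22.1%, 35.8% and 36.6% in these comparisons. Without the filter 3 of the 13 rose and 5 fell in ESA1 sup2- against the wild type, beside 26.1% and 23.4% of all probe sets. The share that rose was thus near that of all. In esa1 sup2- 7 of the 13 fell against ESA1 sup2- and 7 against the wild type, where 36.9% and 38.9% of all probe sets were called lower. APC9 had signals of 201, 194 and 176 in esa1 sup2-, 599.7, 543 and 551 in ESA1 sup2-, and 757 and 737 in ESA1 SUP2. It fell in esa1 sup2- by 1.14 against ESA1 sup2- (SE 0.067, limma adjusted p = 1.8e-06) and by 1.48 against the wild type (SE 0.075, limma adjusted p = 3.5e-07). MND2, another subunit, was at -0.53 in ESA1 sup2- and -1.18 in esa1 sup2- against the wild type (limma adjusted p = 0.0015 and 4.1e-06). MIH1, the phosphatase that removes the inhibitory phosphate from Cdk1, had 516, 555 and 461 in esa1 sup2-, 924, 841 and 1011 in ESA1 sup2-, and 1090.0 and 978 in ESA1 SUP2. It fell by 0.87 in esa1 sup2- against the wild type (SE 0.10, limma adjusted p = 5.5e-05). CDC55 and TPD3, a regulatory and the scaffold subunit of the phosphatase PP2A, had -0.41 and -0.36 in ESA1 sup2- against the wild type (limma adjusted p = 0.0025 and 0.0048), neither called with poly-A control scaling. SIC1, an inhibitor of Clb-bound Cdk1, had 309, 331 and 245 in esa1 sup2-, 719, 779.6 and 670.1 in ESA1 sup2-, and 571 and 561 in ESA1 SUP2. It fell by 1.02 in esa1 sup2- against ESA1 sup2- (SE 0.093, limma adjusted p = 2.1e-05).

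The 4 tubulin genes rose in both mutants over the wild type. Of all tested probe sets 28.5% were called higher in ESA1 sup2- and 37.9% in esa1 sup2- over the wild type. TUB3, a minor alpha-tubulin, had signals of 2438, 2010.2 and 2321 in esa1 sup2-, 1131, 1182 and 1225 in ESA1 sup2-, and 597 and 586 in ESA1 SUP2. It rose by 0.87 in ESA1 sup2- (SE 0.094, limma adjusted p = 0.00014) and by 1.73 in esa1 sup2- (SE 0.094, limma adjusted p = 5.4e-07) over the wild type. TUB2, the only beta-tubulin, rose by 0.74 and 1.23 in these comparisons (limma adjusted p = 0.00015 and 1.6e-06), and TUB1, the main alpha-tubulin, by 0.71 and 0.76 (limma adjusted p = 0.00036 and 6.8e-05). TUB4, the gamma-tubulin, named after its values were seen, rose by 0.83 and 0.51 (limma adjusted p = 0.00018 and 0.00098). Both TUB2 and TUB3 were also higher in esa1 sup2- than in ESA1 sup2- (0.50 and 0.87, limma adjusted p = 0.00033 and 3.2e-05). STU2, a microtubule polymerase, rose by 0.95 in ESA1 sup2- over the wild type, while STU1, of the mitotic spindle, fell by 0.71 in esa1 sup2- against ESA1 sup2- (limma adjusted p = 5.4e-05 and 0.00012). Of the 9 tested spindle genes outside the 34, 8 rose in ESA1 sup2- against the wild type, and 2 rose and 4 fell in esa1 sup2- against ESA1 sup2-. Of all tested probe sets 28.5% were called higher in the first of these comparisons, and 31.8% higher and 35.8% lower in the second, so the falls there were near the background.

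Genes of G1/S and of growth were read beside the 34 genes and did not all move with them. Of 25 G1/S genes 19 rose in ESA1 sup2- over the wild type (median 0.54), and 14 fell and 4 rose in esa1 sup2- against ESA1 sup2- (median -0.24). Over all tested probe sets 28.5% were called higher in the first of these comparisons, and 35.8% lower and 31.8% higher in the second. DUN1, a checkpoint kinase, rose by 1.37 in ESA1 sup2- over the wild type (limma adjusted p = 1.6e-05), ELO1, a fatty acid elongase, rose by 1.27 in esa1 sup2- over ESA1 sup2- (limma adjusted p = 2.6e-06), and POL32, of DNA polymerase delta, by 1.74 in esa1 sup2- over the wild type (limma adjusted p = 2.6e-07). Ribosome biogenesis genes, a measure of growth, rose in 30 of 30 cases in ESA1 sup2- over the wild type (median 0.72), but in esa1 sup2- against ESA1 sup2- 21 rose further and 1 fell (median 0.44), beside the same shares of all probe sets. HAS1, an RNA helicase, rose by 1.42 in ESA1 sup2- over the wild type, and NSR1, a nucleolar protein, by 1.61 in esa1 sup2- over ESA1 sup2- (limma adjusted p = 1.1e-05 and 2.7e-07). The medians of the 34 genes and of the ribosome biogenesis genes thus had the same sign in ESA1 sup2- against the wild type and opposite signs in esa1 sup2- against ESA1 sup2-. The part of growth state in the values of the 34 genes was not tested.

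**Figure D4:**
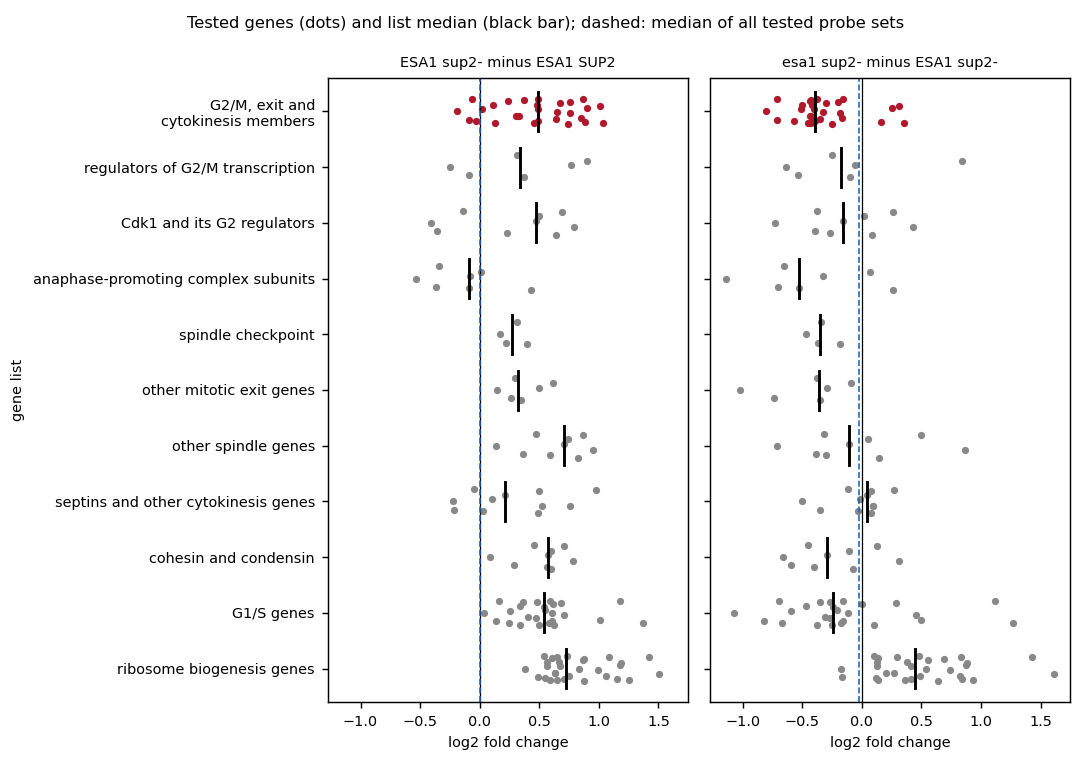
Log2 fold changes (x axis) of the tested genes of each list (y axis) with the list median as a black bar and the median of all tested probe sets as a dashed line. The 34-gene list has a median of 0.49 in ESA1 sup2- minus ESA1 SUP2 and -0.40 in esa1 sup2- minus ESA1 sup2-, and ribosome biogenesis genes have 0.72 and 0.44.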

How the data were processed

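RNA of saturated cultures was hybridised to 1 Affymetrix yeast array per sample. The deposited values are linear probe-set intensity values made by the authors with GCOS and MAS5, per the submitters' processing notes, and each array's trimmed mean (2% of values left out at each end) was 500.2 to 500.28, so arrays had been scaled to a common target. Lowly hybridised probe sets carry little precision, and the number of arrays (2 or 3 per strain) limits the rest. The deposited intensity was used as log2(intensity + 121), the offset being near the 10th percentile of the signals (120.909). With the dimmest 20% of probe sets removed, 4398 of 5498 S. cerevisiae probe sets (4372 genes) were fitted with limma 3.58.1 in R 4.3.3 (intensity trend, all 8 arrays, no covariate), with Benjamini-Hochberg adjustment over all of them and a threshold of 0.05. The background bound of an array was the 99th percentile of probe sets of genes outside S. cerevisiae. Probe-set genes came from the platform annotation, and 1 gene list and a few listed genes are not reported here.

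The genes named are the 34, ESA1, per comparison up to 3 called genes in each direction of the related mitotic lists with the smallest p, and the 1 such gene of the G1/S and ribosome biogenesis lists, besides those said to be named afterwards. The 34 genes and all lists were chosen with earlier results of these data known. Alternatives were other offsets, scalings, filters, variance models, blocks and each array left out. Promoter sequences were not used here, so no motifs are given. Figures were drawn with matplotlib 3.10.9.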

Additional observations from a re-analysis of the deposited data

How the results depend on the processing

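Of 150 recomputed counts of called genes, 134 stayed within 1.5 times the reported count and 16 did not. Leaving out each array in turn gave, in ESA1 sup2- against ESA1 SUP2, 18 to 21 genes higher and 0 to 1 lower (the 1 without esa1 sup2- replicate 2), in esa1 sup2- against ESA1 sup2- 1 to 3 higher (1 without esa1 sup2- replicate 1 or ESA1 sup2- replicate 1 or 3) and 19 to 23 lower, and in esa1 sup2- against ESA1 SUP2 9 to 13 higher and 3 to 6 lower. With the lowest 50% of probe sets left out only 4 of the genes were tested, which gave 2 higher in the first comparison, 0 higher and 3 lower in the second, and 2 higher and 1 lower in the third. With quantile normalization 1 gene was lower in the first comparison and 4 higher in the second. Median centring, and a fit of only the 2 strains compared, each gave 1 lower in the first. Poly-A control scaling gave 3 lower in the second comparison and 0 lower in the third (0 also at an unadjusted p under 0.05 in limma), and hybridisation control scaling gave 1 higher in the second. CLB4 changed sign in esa1 sup2- against ESA1 sup2-, to 0.021 (quantile normalization) and 0.030 (poly-A control scaling), and the cause was not tested. Over 2325 recomputed fold changes of the 34 genes, 104 lost a call, 43 gained one and 49 that were not called changed sign. Poly-A control scaling put the median of all probe sets at 0.19 in the second comparison and 0.30 in the third, median centring at 0.11 and hybridisation control scaling at -0.14 in the second. The median of the 34 genes minus that of all was -0.39, -0.37 and -0.35 in the second comparison with these 3 scalings, against -0.37 as reported. Each of these scalings moves all probe sets of an array together, so this difference could change little. With quantile normalization, which can change it more, the difference was -0.245, and with the offset doubled it was -0.289. Of all calls in the first comparison 56.3% were higher as reported, 69.8% with hybridisation control scaling and 71.3% with poly-A control scaling, in the second 47.0%, 36.9% and 69.7%, with 60.0% after median centring, and in the third 50.9% as reported and 69.5% with poly-A control scaling. Same-numbered arrays of different strains did not deviate together (correlations of -0.093 to 0.14), so the numbers were not taken to pair them. With the replicate block the counts were 19 higher and 0 lower, 3 higher and 21 lower, and 11 higher and 4 lower. The fluidics module as a block gave 20 and 0, 2 and 20, and 12 and 4, and each module held at most 1 array of a strain. Poly-A control scaling without esa1 sup2- replicate 1, and all alternatives for the 6 genes below the filter, were chosen after seeing the data.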
